A study of Mus musculus with 2 samples.

Results

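The last 5 Mb before the distal end of 18 mouse chromosomes (1 to 11 and 13 to 19) were examined in DNA of mouse embryonic stem (ES) cells. For each chromosome the distal end was set at the outermost aligned base of either library, and the 1 kb bins of the 5 Mb before it were taken, without the final 20 kb. This gave 89622 bins of 2578995 on chromosomes 1 to 19 and X, and 83067 of them held a read of at least 1 library. The 2207069 bins further inside the same 18 chromosomes served as the comparison for each chromosome. Position alone chose the bins, and no read count entered the choice.

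The series holds 2 libraries from ES cells kept in LIF, a cytokine that maintains them, with no feeder layer. No input library was used here. In 1 library, chromatin fixed with formaldehyde was precipitated with a home-made rabbit antibody against mouse H2ABbd. In the other, denatured genomic DNA was precipitated with a mouse antibody against 5-methylcytosine (clone 33D3), a method called MeDIP. The file names swap the antibodies relative to the sample labels, so each library is called by its label, and each direction below rests on those labels. With 1 library per group there is no replicate check and no test between conditions. The intervals below are at 95% and cover counting error only, and chromosomes are not replicates.

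Mouse chromosomes have their centromere at one tip, so only the opposite, distal tip borders a long unique arm. In all 18 chromosomes the first aligned read lay between positions 3000001 and 3001329, and the end used here was the one far from it. H2ABbd is a short histone H2A variant that lacks part of the docking domain and forms less stable nucleosomes that wrap less DNA. 5-Methylcytosine is the common methylated base of mammalian DNA, and MeDIP recovers DNA in proportion to both methylation and CpG density. Subtelomeres, the stretches inside the telomere repeats, are known in mouse cells for heavy DNA methylation and for repressive histone marks, while the megabases further in can be rich in genes.

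The last 5 Mb held 69538 distinct H2ABbd reads and 349121 distinct 5mC reads, which are 4.98% and 4.34% of the distinct reads of each. A distinct read is a chromosome, 5′ position and strand counted once. In the library labelled H2ABbd, reads that repeated a position made up 24.9% of its reads in these windows (exact Clopper-Pearson interval 24.6 to 25.2%) and 61.8% of its reads in the other bins (61.8 to 61.9%). For 5mC the shares were 6.63% (6.55 to 6.71%) and 13.5% (13.5 to 13.6%). Chromosome by chromosome the order was the opposite on 11 of 18 in each library, with median shares of 21.8% against 20.9% (H2ABbd) and 5.81% against 5.01% (5mC), and chromosomes 2 and 9 had the highest shares in their other bins. Bins at least 40 times above their chromosome mean in both libraries, called pile-ups here, numbered 2 of 83067 bins in the last 5 Mb and 86 of 1974906 other bins, and no difference is read from these counts. They held 1.80% of the H2ABbd reads in the last 5 Mb and 53.9% of those in the other bins.

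Both libraries were denser in the last 5 Mb than in the rest of the chromosome on most chromosomes. The level, here the mean number of distinct reads per bin with a read in either library, divided by that in the other bins of the same chromosome, was above 1 on 14 of 18 chromosomes in the library labelled H2ABbd (median 1.26, range 0.453 to 2.70). For 5mC it was above 1 on 13 of 18 (median 1.20, range 0.564 to 1.63). On 13 chromosomes (2, 4 to 11, 14 to 16 and 19) both levels were above 1, and on chromosomes 3, 13, 17 and 18 both were below 1. Chromosome 1 alone was split. No interval of the 18 chromosomes included 1 in either library.

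**Figure D1:**
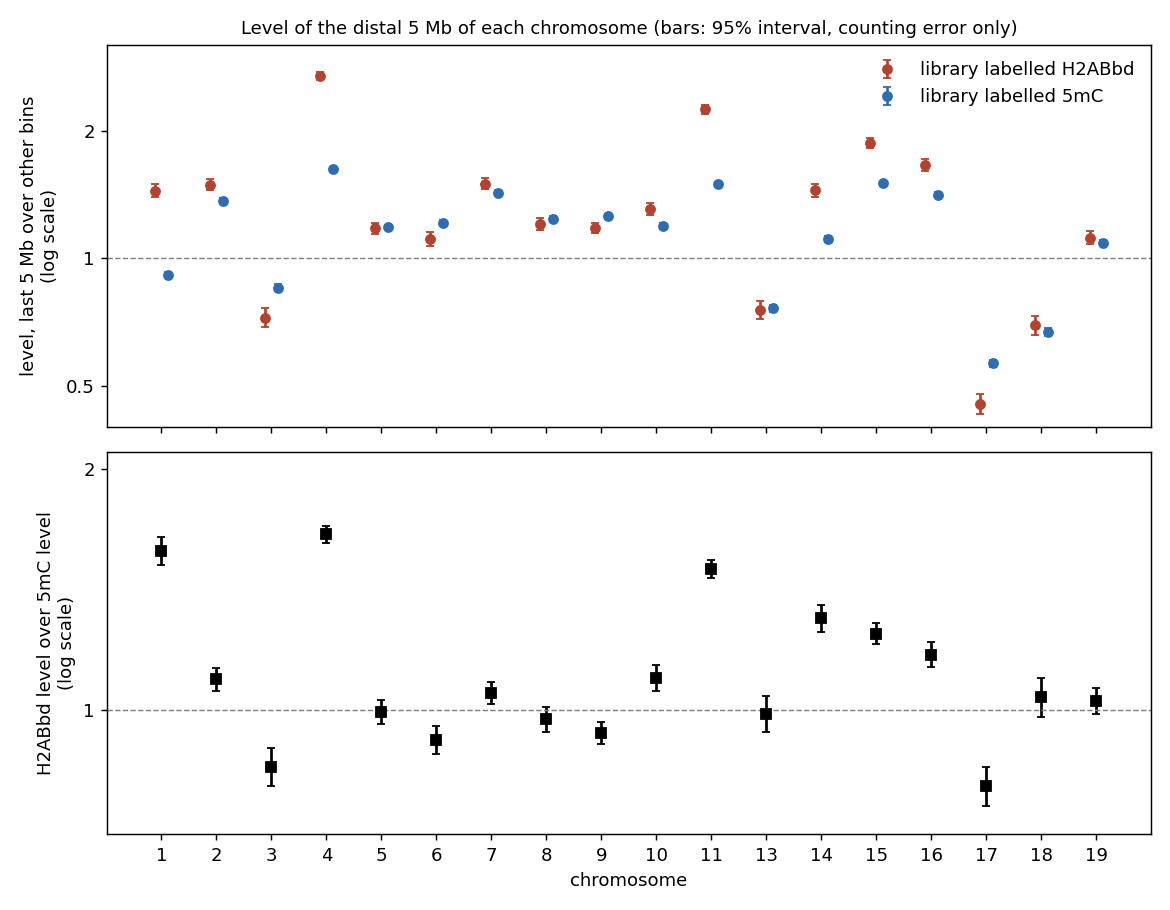
Level of the last 5 Mb over the other bins of each chromosome for H2ABbd (red) and 5mC (blue), and below it the ratio of these levels (black squares), on log scales with 95% intervals that cover counting error only. Chromosomes 4 (2.70) and 11 (2.25) have the highest H2ABbd levels and chromosome 17 (0.453) the lowest, and the 5mC levels span a narrower range.

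Chromosome 4 had the highest level in both libraries. Its last 5 Mb (mm9, 150629636 to 155629635) held a mean of 1.74 distinct reads per bin of the library labelled H2ABbd, which was 2.70 times the other bins of the chromosome (2.64 to 2.76). The library labelled 5mC stood at 1.63 times (1.61 to 1.65). Chromosome 11 followed with an H2ABbd level of 2.25 (2.20 to 2.30) and a 5mC level of 1.5002 (1.48 to 1.52). The third, chromosome 15, had 1.87 (1.82 to 1.93) and 1.503 (1.48 to 1.52). Chromosome 7, whose distal part is known for the imprinted cluster with H19 and Kcnq1ot1, had 1.502 (1.46 to 1.55) and 1.43 (1.41 to 1.45). The intervals of chromosomes 4, 11 and 15 do not overlap in the library labelled H2ABbd, whereas those of chromosomes 11 and 15 do in the other library.

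At the low end of the order, the H2ABbd level of chromosome 17 was 0.453 (0.429 to 0.478) with a 5mC level of 0.564 (0.553 to 0.576). Chromosome 18 had 0.694 (0.658 to 0.731) and 0.668 (0.655 to 0.682), chromosome 3 had 0.723 (0.686 to 0.761) and 0.851 (0.835 to 0.867), and chromosome 13 had 0.753 (0.717 to 0.790) and 0.761 (0.747 to 0.776). The H2ABbd intervals of chromosomes 18, 3 and 13 overlap, and chromosome 17 lay below all of them. These 4 chromosomes also had many bins without a read of either library: 944 on chromosome 17, 899 on 18, 714 on 13 and 700 on 3, against 39 on chromosome 4 and 52 on chromosome 11. Chromosome 1 had 664 such bins, with an H2ABbd level of 1.44 and a 5mC level of 0.912. Over the 18 chromosomes the number of bins with a read and the level had a Pearson r of 0.745 for H2ABbd and 0.936 for 5mC (n = 18, given as a description; the axes share the same reads). The part of unalignable sequence in the levels was not tested. With every bin as the denominator the same numbers of chromosomes, 14 and 13, were above 1.

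For orientation, the RefSeq annotation of GRCm38.p6, a later build than that of the files, was used for gene names and order only. Among its last 5 protein-coding genes at the distal end are Samd11, Noc2l, Klhl17 and Plekhn1 on chromosome 4, and Nckap1l, Pde1b, Ppp1r1a and Glycam1 on chromosome 15. On chromosome 17 they include Adcyap1, a neuropeptide gene, and Fshr, the receptor of follicle-stimulating hormone. On chromosome 3 they include Lrrc7, Rpe65, an enzyme of the visual cycle, and Wls, a carrier protein for Wnt secretion. No bin was matched to a gene, and no value here belongs to one.

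The levels of the libraries followed each other over the 18 ends (Pearson r = 0.870, Spearman rho = 0.882, n = 18, given as a description), with a wider span in the library labelled H2ABbd. Dividing the H2ABbd level by the 5mC level gave a median of 1.04. The ratio was above 1 on 11 of 18 chromosomes, with an interval above 1 on 9 (1, 2, 4, 7, 10, 11, 14, 15 and 16) and below 1 on 4 (3, 6, 9 and 17). The 3 highest were chromosomes 4 (1.66, 1.62 to 1.70), 1 (1.58, 1.52 to 1.64) and 11 (1.4999, 1.46 to 1.54). The 3 lowest were chromosomes 17 (0.803, 0.758 to 0.850), 3 (0.849, 0.804 to 0.897) and 6 (0.917, 0.881 to 0.955). Chromosomes 5, 8 and 13 were also below 1, at 0.995, 0.974 and 0.989, with intervals that include 1.

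Chromosome 1 was the one end where the levels of the libraries lay on different sides of 1. Its H2ABbd level was 1.44 (1.39 to 1.49) and its 5mC level 0.912 (0.896 to 0.929). The split was not particular to the last 5 Mb. From 5 to 10 Mb the H2ABbd level was 1.29, the 5mC level 0.818 and the ratio 1.57. Among the 38 consecutive windows of 5 Mb on that chromosome, the distal one ranked 5 by H2ABbd, 17 by 5mC and 1 by the ratio. Repeated positions were frequent there, at 41.5% of the H2ABbd reads against 18.99% in the other bins, and at 17.1% against 4.55% for 5mC. With all reads kept the 5mC level of this end was 1.05.

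The values of chromosomes 2 and 9 changed with the treatment of repeated positions and of the most covered bins. On chromosome 9 the ratio was 0.937 (0.908 to 0.966), but it was 1.34 without the 0.1% most covered bins, where the H2ABbd level rose from 1.18 to 1.81. With all reads kept, the H2ABbd level fell to 0.186 on chromosome 9 and to 0.170 on chromosome 2, where 87.4% and 91.4% of the reads in the other bins repeated a position. On chromosome 2 the level was 1.49 with distinct reads and 1.55 without the most covered bins.

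The distal window was ranked among the whole 5 Mb windows counted inwards from it, which leaves out the incomplete window at the first reads. On chromosome 9 the first 5 Mb, part of it unranked, had levels of 13.96 (H2ABbd) and 3.24 (5mC), and on chromosome 11 a 5mC level of 1.62. Among the ranked windows, the distal one was the highest by H2ABbd on chromosomes 4, 9 and 11, and among the highest 3 on 8 of 18 chromosomes. By 5mC it was the highest on chromosomes 7, 9, 11 and 16 and among the highest 3 on 7 chromosomes. By the ratio it was the highest on chromosomes 1, 4, 11 and 14. On chromosome 3 it ranked 28 of 31 by H2ABbd and 24 by 5mC, and on chromosome 17 it was the last of 18 in both.

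The raised median H2ABbd level did not extend into the outermost 2 Mb of the window. In steps of 500 kb, the median H2ABbd level over the 18 chromosomes was 0.870 in the outermost step (20 to 500 kb), 0.770, 0.823 and 0.833 in the next 3, and 1.30 between 2 and 2.5 Mb. It was highest at 3.5 to 4 Mb (1.62), stood at 1.54 from 4.5 to 5 Mb, and was 1.31 just outside the window (5 to 5.5 Mb). It returned to 0.984 between 9 and 9.5 Mb. The library labelled 5mC had 0.857 in the outermost step and 0.902, 0.915 and 1.07 in the next 3. Between 2 and 4 Mb it lay at 1.33 to 1.35, and from 4.5 to 5 Mb at 1.19. The median step of the same chromosomes outside the last 5 Mb had levels of 0.798 (H2ABbd) and 0.911 (5mC), so the outermost steps lay near the median step of the rest of the chromosome. Chromosomes differed, and in the outermost step 8 of 18 were above 1 by H2ABbd and 6 by 5mC. The final 20 kb, outside the steps, had medians of 1.61 (H2ABbd) and 1.12 (5mC).

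**Figure D2:**
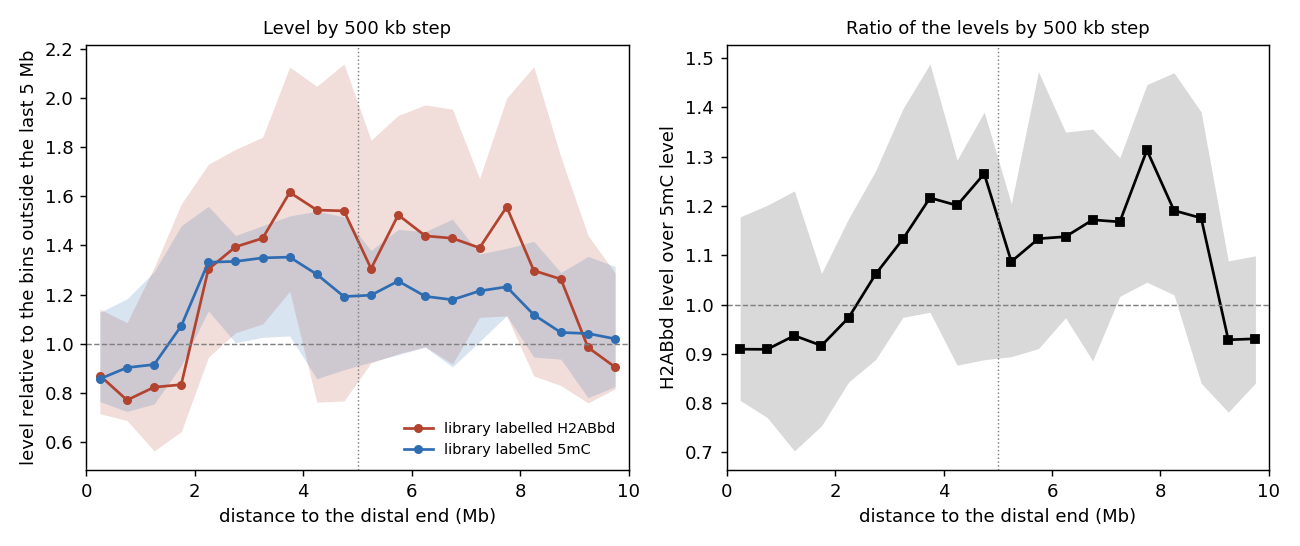
Median level over the 18 chromosomes by distance to the distal end in 500 kb steps (left, red for H2ABbd and blue for 5mC) and median ratio of the levels (right). Shaded bands run from the lower to the upper quartile over chromosomes, and the dotted line marks the 5 Mb bound. Both medians lie below 1 in the outermost step (0.870 and 0.857) and above 1 from 2 to 9 Mb.

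The outer and inner portions of the window were then compared within each chromosome, with the bound at 2 Mb chosen after the steps were seen. From 20 kb to 2 Mb the median H2ABbd level was 0.834, and 7 of 18 chromosomes were above 1. From 2 to 5 Mb it was 1.54, with 14 of 18 above 1, and from 5 to 10 Mb it was 1.27, with 17 of 18 above 1. The outer portion was lower than the inner one on 14 of 18 chromosomes, with chromosomes 2, 3, 17 and 18 as the exceptions. For 5mC the medians were 0.938, 1.32 and 1.15, and the outer portion was lower on 13 of 18 chromosomes, the exceptions being 2, 7, 13, 17 and 18. Without bins enriched in either library the outer portion was lower on 12 and 13 chromosomes, and with all reads kept on 14 and 14. Bins with a read made up a median of 93.3% of the outer and 96.1% of the inner portion.

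The H2ABbd level changed most steeply on chromosomes 8 and 9. On chromosome 8 the H2ABbd level was 0.528 from 20 kb to 2 Mb, 1.63 from 2 to 5 Mb and 3.23 from 5 to 10 Mb, and the 5mC level was 0.838, 1.49 and 1.80. On chromosome 9 the H2ABbd level was 0.601 and 1.54 in the outer and inner portions, and the 5mC level 0.999 and 1.42. Both libraries were denser further in there, the one labelled H2ABbd by the larger factor. Chromosomes 4 and 11 instead were high in the outer portion too, with H2ABbd levels of 2.69 and 2.06 against 2.70 and 2.37 in the inner one. In the outermost step, however, chromosome 4 stood at 3.15 and chromosome 11 at 0.783. Chromosome 2 ran the other way, with 1.84 in the outer and 1.25 in the inner portion.

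The ratio of the levels changed along the window as well. Its median was 0.909 in the outermost step and 1.27 from 4.5 to 5 Mb. The outermost over the innermost median was 0.719. Taken within each chromosome first, the same quotient had a median of 0.899 (range 0.418 to 1.46), and the outermost step had the lower ratio on 12 of 18. The ratio was above 1 on 6 of 18 chromosomes in the outermost step, on 13 between 3 and 4 Mb, and on 11 at the inner bound. Of the 180 steps of 500 kb, the 3 highest ratios were on chromosome 4 from 151629636 to 152129635 (2.13, 2.00 to 2.27, from 1309 and 3425 reads), chromosome 1 from 192193297 to 192693296 (2.05, 1.85 to 2.27) and the outermost step of chromosome 4 (2.04, 1.89 to 2.19). The 3 lowest were chromosome 9 from 123075887 to 123575886 (0.503, 0.439 to 0.577), chromosome 17 from 90772628 to 91272627 (0.505, 0.406 to 0.627) and chromosome 9 from 122575887 to 123075886 (0.513, 0.447 to 0.588). The chromosome 9 steps had 5mC levels of 1.03 and 1.01 with H2ABbd levels of 0.518 and 0.520. There the library labelled 5mC stood near its mean in the other bins of chromosome 9, and the other library below its own. That H2ABbd mean includes the most covered bins and, at 0.910 distinct reads per bin, was the highest of the 18 (median 0.595). Whether these steps rank as low without those bins was not tested.

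**Figure D3:**
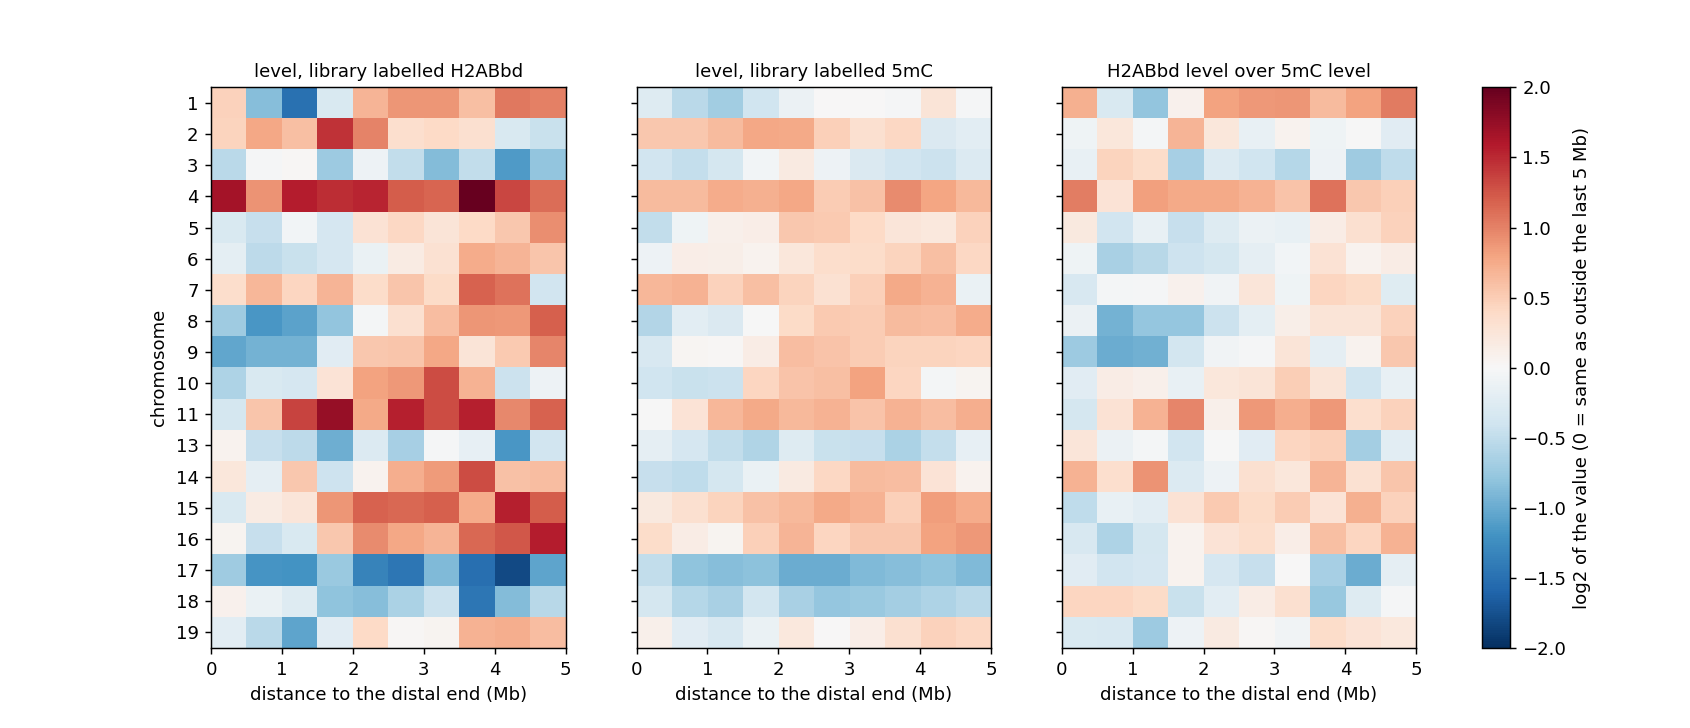
Level of each 500 kb step (columns, by distance to the distal end) on each of the 18 chromosomes (rows) for H2ABbd, for 5mC and for their ratio, coloured by log2 with white at the mean outside the last 5 Mb. Chromosome 4 is above 1 in 10 of 10 steps in both libraries, chromosome 17 in 0 of 10, and chromosomes 8 and 9 turn from low to high away from the end in the library labelled H2ABbd.

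Counted over all 180 steps, 104 (57.8%) had an H2ABbd level above 1, against 34.1% of the 4562 steps of the 18 chromosomes. For the library labelled 5mC it was 111 steps (61.7%) against 40.9%, and for the ratio 94 (52.2%) against 35.2%. Of the 180 steps, 50 (27.8%) were among the 10% highest of all steps by H2ABbd, 51 (28.3%) by 5mC and 44 (24.4%) by the ratio. Among the 10% lowest there were 11, 12 and 15. The log2 levels of the libraries correlated over the 180 steps at r = 0.863 and over the 4382 other steps at r = 0.845, as a description of steps that share depth and base composition. The distal steps thus spread along the band of the other steps. On chromosome 4 all 10 steps were above 1 in both libraries, with H2ABbd levels of 1.87 to 4.09, and on chromosome 17 none was, with 0.288 to 0.609.

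**Figure D4:**
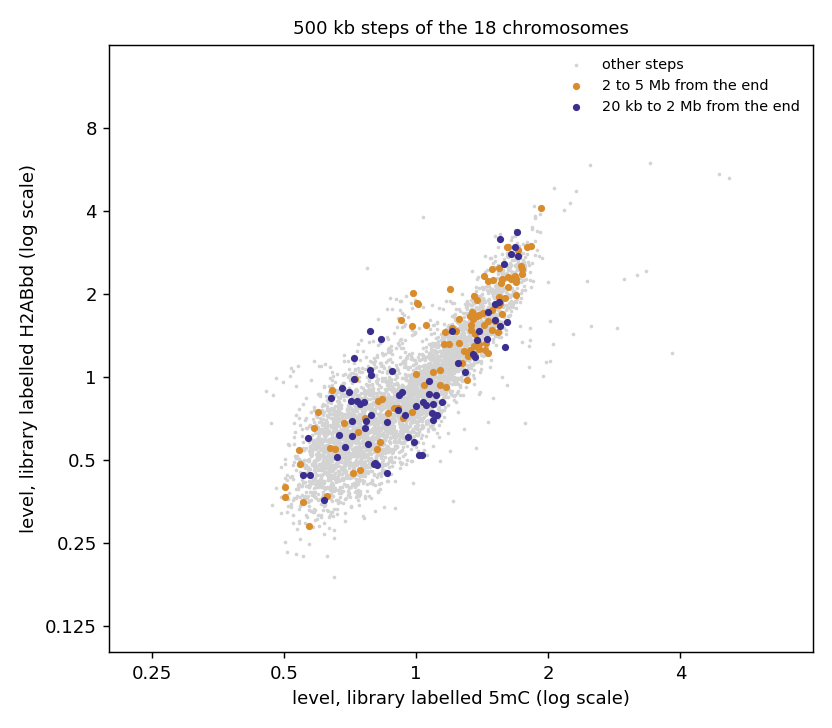
Each point is a 500 kb step of the 18 chromosomes, by its 5mC level and its H2ABbd level (log scales, 1 being the mean outside the last 5 Mb). Other steps are grey, steps 2 to 5 Mb from the end orange and steps from 20 kb to 2 Mb purple. The 180 distal steps follow the same band as the others (r = 0.863 and 0.845), and 2 steps lie outside the axes.

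Enriched bins were more frequent in the last 5 Mb. To be called, a bin needed at least 4 times the mean of its chromosome and a Poisson tail of 0.01 after adjustment, a filter within 1 library rather than a test of conditions. In the library labelled H2ABbd 1657 of 83067 bins were called there, 1.99% (1.90 to 2.09%), against 1.12% of the other bins (1.10 to 1.13%) and 1.18% of all bins tested. The share was 1.79 times that of the other bins (1.70 to 1.88). Of the library labelled 5mC 717 bins passed, 0.863% (0.801 to 0.928%), against 0.499% of the other bins and 0.508% of all bins, a ratio of 1.73 (1.60 to 1.87). With the 5mC reads thinned to the number of H2ABbd reads, 34 bins passed for 5mC with a ratio of 1.16, at 8-fold or more 83 with a ratio of 1.34, in 5 kb bins 39 with a ratio of 1.27, and in the last 2 Mb the ratio was 1.00. The share was higher in the last 5 Mb on 13 of 18 chromosomes in each library. Bins were held against their chromosome mean, so these shares are not separate from the levels above. With a local mean over 100 kb as well, 728 bins passed for H2ABbd and 235 for 5mC. H2ABbd reads were missing from 60.0% of the bins tested in the last 5 Mb and from 68.0% of the other bins.

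Chromosome 4 had the most enriched bins, 296 in the library labelled H2ABbd (5.99% of its distal bins against 1.40% elsewhere on the chromosome) and 100 in the library labelled 5mC (2.02% against 0.538%). Chromosomes 11 (4.24% against 0.985%) and 15 (3.41% against 1.21%) followed in the library labelled H2ABbd. Chromosomes 16 (1.66% against 0.492%) and 15 (1.43% against 0.439%) followed in the library labelled 5mC. The lowest shares were those of chromosome 17 in the library labelled H2ABbd (0.545% against 1.72%) and of chromosome 18 in the library labelled 5mC (0.0735%, 3 bins, against 0.517%). Chromosomes 6 and 5 had fewer H2ABbd bins than elsewhere on them (0.870% against 0.997%, and 1.29% against 1.66%), although their levels were above 1. By distance, 14.1 bins per 1000 were called in the library labelled H2ABbd in the outermost step and 29.6 at 3.5 to 4 Mb, and in the library labelled 5mC 4.59 and 12.2.

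**Figure D5:**
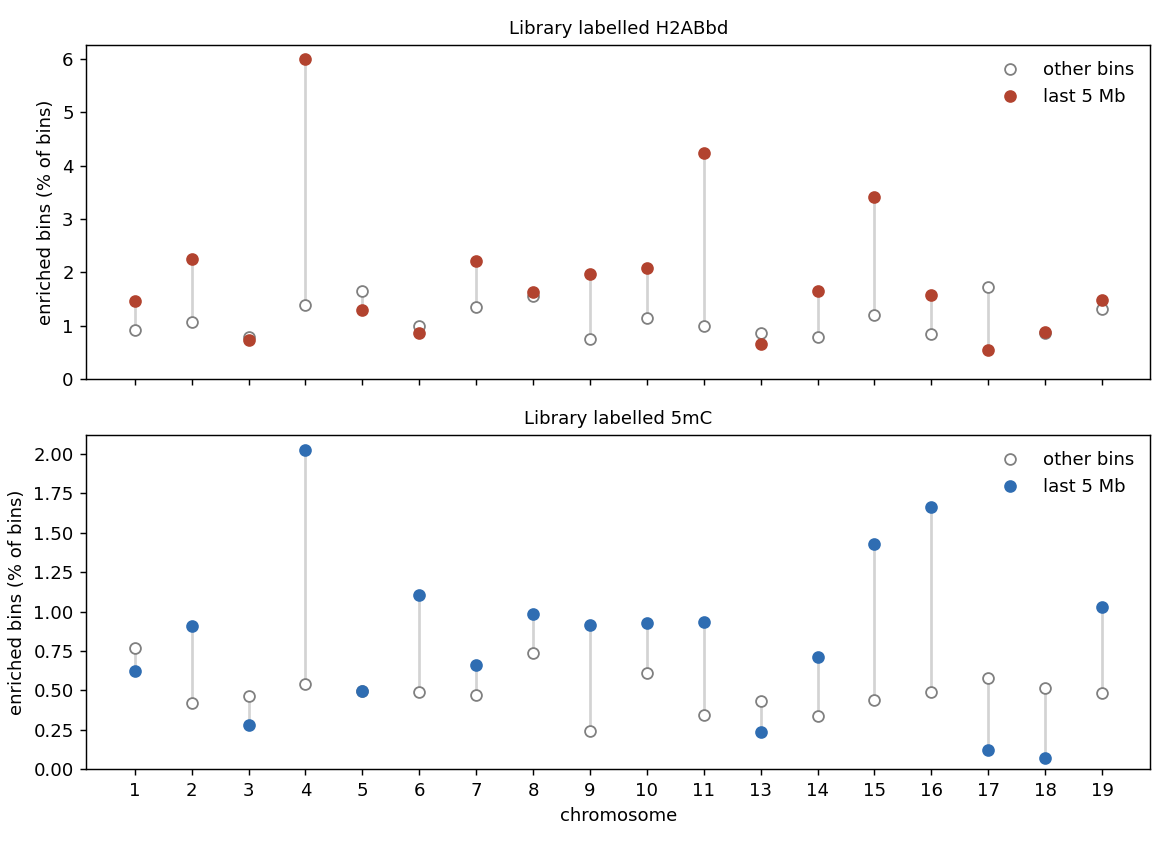
Share of bins called enriched in the last 5 Mb (filled) and in the other bins (open) of each chromosome, for H2ABbd (top) and 5mC (bottom), in percent of bins with a read. The filled point is higher on 13 of 18 chromosomes in each panel, and chromosome 4 has the highest share in both (5.99% and 2.02%).

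Bins enriched in both libraries numbered 166 in the last 5 Mb, 0.200% of the bins tested (0.171 to 0.233%), against 0.120% of the other bins and 0.122% of all bins. They were 10.0% of the bins called in the library labelled H2ABbd and 23.2% of those called in the library labelled 5mC there, close to the 10.8% and 24.1% in the other bins. The number fell to 75 when bins were also held against a local mean over 100 kb, and to 21 when the 5mC reads were thinned to the number of H2ABbd reads. Over 1 kb bins the libraries correlated at r = 0.267 in the last 5 Mb (n = 83067 bins) and 0.202 in the other bins. Within chromosomes the median r was 0.205 in the last 5 Mb and 0.203 elsewhere, and it was lower in the last 5 Mb on 7 of 18. Over 100 kb bins the pooled values were 0.850 (n = 879) and 0.8002, again as a description.

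The called bins of the last 5 Mb formed 1403 regions in the library labelled H2ABbd, 1216 of them a single bin, and 660 in the library labelled 5mC, 612 of them a single bin. The densest of 2 kb or longer in the library labelled H2ABbd was on chromosome 1 from 195053001 to 195055000, 2.14 Mb from the end, at 139.5 times the chromosome mean (117.7 to 164.2). It held 564 reads at 145 distinct positions, and the library labelled 5mC stood at 24.2-fold there (20.5 to 28.4) with 984 reads at 150 positions. Another on chromosome 1, from 194277001 to 194279000, had 959 reads at 86 positions (82.7-fold, 66.2 to 102.2) and a 5mC fold of 16.8 (13.7 to 20.3). Both had more reads per distinct position than the other 3 of the 5.

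On chromosome 4 the region from 155511001 to 155513000, 0.117 Mb from the end, had 189 reads at 160 positions and lay 116.9-fold above the mean (99.5 to 136.5), with a 5mC fold of 13.3 (10.8 to 16.2). Chromosome 16 from 95730001 to 95733000 had 92 reads, all at separate positions (58.7-fold, 47.4 to 72.0), and a 5mC fold of 2.40 (1.54 to 3.57). Chromosome 14 from 124814001 to 124816000 had 53 distinct reads (53.3-fold, 39.9 to 69.7) and 6 of the library labelled 5mC (0.915-fold, 0.336 to 1.99). The last was also the distal region with the highest ratio per distinct read of the libraries, 50.9 (21.9 to 145.0). It was followed by chromosome 14 from 124279001 to 124280000 (29.8, 12.2 to 87.4) and chromosome 19 from 60423001 to 60425000 (27.3, 14.1 to 57.9). In all 3 the library labelled 5mC lay at 0.915 to 1.83 times its chromosome mean. These 3 regions were chosen by this ratio, so its bounds and their low 5mC folds lend no support. The longest region of the library labelled H2ABbd spanned 10 kb on chromosome 2, from 179919001 to 179929000, at 16.2-fold (13.2 to 19.8), with a 5mC fold of 2.57 (2.08 to 3.16). It was singled out after its values were seen.

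The 5 densest regions of 2 kb or longer in the library labelled 5mC were on chromosomes 1, 2 and 9. No gathering near the ends is read from their positions. Called 5mC bins numbered 4.59 per 1000 in the outermost step and 12.2 at 3.5 to 4 Mb. Chromosome 2 from 181652001 to 181654000, 0.0940 Mb from the end, had 208 distinct reads (29.1-fold, 25.3 to 33.3), and from 181663001 to 181667000 there were 330 (23.1-fold, 20.7 to 25.7). The H2ABbd folds there were 18.7 (11.8 to 28.0) and 10.97 (7.23 to 15.95). Chromosome 1 from 197067001 to 197069000, 0.124 Mb from the end, had 132 (21.3-fold, 17.8 to 25.3) with an H2ABbd fold of 37.5 (26.7 to 51.3). The region named first for the library labelled H2ABbd on chromosome 1 was the second densest of this library. Chromosome 9 from 121838001 to 121842000, 2.23 Mb from the end, had 334 distinct reads of 345 (20.6-fold, 18.4 to 22.9) and only 9 in the library labelled H2ABbd (2.45-fold, 1.12 to 4.66).

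The regions with the most 5mC relative to H2ABbd per distinct read were chromosome 19 from 59040001 to 59042000, with 58 distinct reads against 1, chromosome 4 from 154054001 to 154056000, with 47 against 1, and chromosome 9 from 121178001 to 121180000, with 47 against 1. With a single read in the sparser library, the ratio of H2ABbd to 5mC was 0.0994 for the first (0.00248 to 0.576) and 0.123 for the others (0.00304 to 0.718). The regions were chosen by this ratio, so its bounds lend no support. Their H2ABbd folds were 0.780 (0.0197 to 4.34), 0.731 (0.0185 to 4.07) and 0.545 (0.0138 to 3.04), with intervals that include 1. Regions enriched in both libraries were ordered by the smaller of their folds. The first was a single bin on chromosome 16, spanning 93789001 to 93790000, with an H2ABbd fold of 250.9 and a 5mC fold of 46.8. Next came bins on chromosome 4 (152527001 to 152528000), with 178.3 and 43.5, and on chromosome 13 (116983001 to 116984000), with 179.2 and 32.2. They held 1196, 466 and 964 reads of the library labelled H2ABbd at 131, 122 and 93 positions, so many reads repeated a position. The other 2 of the 5 were the chromosome 1 regions 2.14 and 0.124 Mb from the end.

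The opposite ends gave lower H2ABbd levels on most chromosomes. In the first 5 Mb after the first read, held against the bins of the chromosome outside both end windows, the H2ABbd level had a median of 0.928 and was above 1 on 7 of 18 chromosomes, with 13.96 on chromosome 9. The 5mC level had a median of 1.04 with 10 of 18 above 1. The distal level was the higher of the pair on 12 of 18 chromosomes in the library labelled H2ABbd and on 10 in the library labelled 5mC. At the first 5 Mb 1.45% and 0.804% of bins were enriched, and 0.290% in both.

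The last 5 Mb of chromosomes 12 and X were outside the 18 and are given for comparison. Chromosome 12 had an H2ABbd level of 0.494 (0.470 to 0.519) and a 5mC level of 0.918 (0.903 to 0.934), so its ratio of 0.538 (0.511 to 0.567) was below those of all 18. Its 5 to 10 Mb stretch, however, had an H2ABbd level of 3.07, second to that of chromosome 8 (3.23). Repeated positions made up 62.0% of the H2ABbd reads in the other bins of chromosome 12 and 14.5% in its last 5 Mb. Its level without the most covered bins was not computed. Chromosome X had 1.43 in both libraries, with 2.60 (H2ABbd) and 2.17 (5mC) in the outer 2 Mb and 0.712 and 0.975 from 2 to 5 Mb. Only its outermost 500 kb step was raised in that outer part, at 9.28 (H2ABbd) and 6.95 (5mC). From 0.5 to 2 Mb its steps lay at 0.606 to 0.853 and at 0.796 to 0.855.

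At the bounds of the rule, the final 20 kb left out had a median H2ABbd level of 1.61 over the 18 chromosomes, with a range of 0.172 to 74.0. The adjoining 20 to 40 kb had 0.920, with a range of 0.0923 to 5.66. On chromosome 18 the final 20 kb alone moved the level of the window from 0.694 to 1.03. In the library labelled 5mC the medians were 1.12 and 0.851.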

How the data were processed

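The submitters' processing notes name FastQC, Bowtie and the mouse build mm9. No versions, and no rule for reads that fit several places, were found in the labels. Each line of the deposited files is a 42 bp read position, and the constant score of 255 was not used. On chromosomes 1 to 19 and X the library labelled H2ABbd had 3501460 reads at 1396198 distinct positions and the library labelled 5mC 9260168 at 8051714. Lines with broken separators (8 and 1) were left out. Distinct 5′ positions, shifted downstream by 100 bp, were counted in 1 kb bins.

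Levels are ratios of mean distinct reads per bin with a read in either library. Intervals of a level are exact (conditional on the sum of both counts), of a share exact Clopper-Pearson, of a region's fold exact Poisson, and of a ratio of levels normal on the log scale. Without molecular identifiers, PCR reads need not be independent molecules. Poisson tails were adjusted (Benjamini-Hochberg) over all 2299806 bins of the 20 chromosomes. Correlations of bins used log2(RPM + 0.1), with RPM from distinct reads.

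Named are the 3 highest and 3 lowest chromosomes and steps, chromosomes on the other side of 1 from the median, 5 regions per library (the densest, 2 kb or longer), 5 called in both (by the smaller fold), and the 3 of highest ratio each way with at least 30 distinct reads. The windows, settings and rules were chosen with earlier results of these data known. The level and calling steps were run on simulated Poisson counts, the model that the intervals and tails assume. How they behave with the uneven coverage of real bins was not tested. No mm9 sequence or annotation was used here, so coordinates (1-based) stand without genes or bases. Python 3.11.15, numpy 2.4.6, scipy 1.17.1 and matplotlib 3.10.9 were used.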

Additional observations from a re-analysis of the deposited data

Results flagged for a closer look

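The lines with broken field separators, left out of the report, all lie within the last 5 Mb of chromosome 7, in the bin from 150481001 to 150482000, 2.04 Mb from the end. There were 8 for H2ABbd, above the 3 counts that a count of 0 allows, and 1 for 5mC. Most of the 8 share 1 start and strand, so they add only 3 distinct positions, which is not above 3. From regular lines the bin held 26 distinct reads of the library labelled H2ABbd (40.6-fold) and 24 of the library labelled 5mC (6.51-fold), and with the broken lines 29 (45.3-fold) and 25 (6.78-fold). The level of the last 5 Mb of chromosome 7 was 1.502 without and 1.503 with them for H2ABbd, and 1.43 either way for 5mC. How these lines arose was not tested.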

How the results depend on the processing

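The order below is H2ABbd level, 5mC level and ratio, with medians over chromosomes of 1.26, 1.20 and 1.04. They were 0.839, 0.930 and 0.954 for the last 2 Mb, where all 3 turned below 1, and 1.32, 1.18 and 1.16 for the last 10 Mb. With medians over 100 kb windows they were 1.59, 1.32 and 1.18. The levels were 1.19 and 1.15 with all reads kept, 1.13 and 1.07 with the library labelled 5mC thinned, and 1.34 and 1.27 with all bins as the denominator. Without the 0.1% most covered bins the H2ABbd level was 1.34 and the ratio 1.09, and pooled over chromosomes they were 1.38 and 1.16. The outermost over the innermost step, 0.719, was 0.776 with all reads kept, 0.762 without the most covered bins, 0.751 thinned and 0.770 without enriched bins, a setting added after seeing the data. Leaving out each chromosome in turn gave 1.21 to 1.31, 1.19 to 1.21, 1.04 to 1.05 and 0.655 to 0.795.

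The share of enriched bins over that elsewhere, 1.79 and 1.73, was 1.60 and 1.16 thinned, 1.94 and 1.27 in 5 kb bins, 1.40 and 1.00 for the last 2 Mb, 1.38 (H2ABbd) with the local mean as well and 1.34 (5mC) at 8-fold or more. Leaving out 1 chromosome gave 1.59 to 1.89 and 1.59 to 1.85, and 145 to 163 shared bins. The shared bins, 166, were 75 with the local mean, 70 at an adjusted 1e-05, 48 at 8-fold, 24 in 5 kb bins, 21 thinned and 52 in the last 2 Mb, where fewer bins were counted. Of 26 calls of named regions 4 were kept without the most covered bins, since these regions are among them. The numbers called in the last 5 Mb, 1657 and 717, were 728 and 235 with the local mean, 523 and 296 at 1e-05, 1631 and 83 at 8-fold, 1110 and 39 in 5 kb bins, 1008 and 34 thinned, and 525 and 168 in the last 2 Mb.

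Some chromosomes changed side. With all reads kept these were the 5mC level of chromosome 1 (1.05), both levels and the ratio of chromosome 2 (0.170, 0.830 and 0.204) and both levels of chromosome 9 (0.186 and 0.747). Thinned, they were the H2ABbd levels of chromosomes 6 (0.998) and 9 (0.980) and the 5mC level of chromosome 14 (0.993). The ratio of chromosome 9 was 1.34 without the most covered bins, 1.31 with medians over windows and 1.29 without enriched bins. Medians over windows also turned the 5mC level of chromosome 1 (1.06) and the ratio of chromosome 10 (0.977), and the final 20 kb turned the H2ABbd level of chromosome 18 (1.03). Beyond what each setting leaves out, the cause was not tested. With 0.784 distinct reads per distal bin at the median chromosome, single bins of the library labelled H2ABbd show only strong enrichment. No paired analysis was possible because there is 1 library per group.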
